A study of Homo sapiens with 4 samples.

Results

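Metallothioneins are small, cysteine-rich proteins that bind zinc and copper in the cytoplasm, buffer the free concentration of these metals and scavenge reactive oxygen species. Most human metallothionein genes lie in a cluster on the long arm of chromosome 16. Their transcription is switched on by the zinc-sensing factor MTF1, which binds short metal response elements (MREs) in the promoters, and also by glucocorticoids and oxidative stress. The 7 genes described here were taken by symbol from the deposited expression table: MT1E, MT1F, MT1G, MT1H, MT1M, MT1X and MT2A. They are 7 of its 58365 rows, and no symbol was repeated among them. Levels are in FPKM, the number of fragments of a gene scaled to transcript length and sequencing depth. After genes with a mean below 1 FPKM were set aside, 6 of the 7 were among the 14022 genes tested. MT1M, with a mean of 0.123 FPKM, did not pass.

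The cells were H1, a human embryonic stem cell line, taken at day 2 of hematopoietic differentiation. All 4 samples were grown in a custom mTeSR1 medium with activin A at 40 ng/ml and BMP4 at 50 ng/ml per the labels, whereas the study's methods give these doses the other way round. The 2 DMSO samples were the vehicle controls. The other 2 received IWP2, an inhibitor of porcupine, the enzyme that attaches the lipid which Wnt ligands need for secretion, and its concentration is not given in the sources used here. The study used the inhibitor to ask whether Wnt signaling is needed for mesenchymal genes to come up as pluripotent cells turn into mesoderm. H1 is a single line, and the labels do not say whether these replicates came from separate cultures, so the p-values measure the spread between these samples, which may be technical. Each sample was a bulk population, in which fewer cells of a type and less RNA per cell cannot be told apart.

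The state of the cells was checked first on marker lists. Of 10 primitive streak and mesoderm markers tested, 10 fell with IWP2, against 8.44% of all genes tested that were called lower. APLNR, the apelin receptor used to mark early mesoderm, stood at 380 and 512 FPKM in DMSO and at 2.97 and 2.39 in IWP2. MSGN1, the only other marker on that list, was below the minimum and was listed at 0 in both IWP2 samples. The summed level of the 11 markers was 1150 and 1472 FPKM in DMSO and 150 and 173 in IWP2, with APLNR the most abundant. MESP1, GSC and MESP2, transcription factors of the streak and early mesoderm, had log2 changes of -5.70, -4.36 and -3.96. Of 8 pluripotency markers, 4 rose and 1 fell. SOX2, a core pluripotency factor, was 0.193 and 0.174 FPKM in DMSO and 35.6 and 36.1 in IWP2. POU5F1, its partner factor and the most abundant marker on that list, was 751 and 571 FPKM in DMSO and 1854 and 1844 in IWP2. DPPA4 and ZFP42 rose as well, whereas TDGF1, a NODAL co-receptor, fell from 203 and 221 to 103 and 98.6 FPKM. All 8 pluripotency markers were detected, and they summed to 1468 and 1297 FPKM in DMSO and to 2584 and 2588 in IWP2. The groups thus differed in these markers as well as in treatment, and the part of cell state in the metallothionein levels was not tested.

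All 7 genes lie within 76.0 kb of chromosome 16 (GRCh38), in a stretch that wholly contains 16 annotated genes. From the centromeric side they are MT2A (chr16:56608199-56609497), MT1E (chr16:56625475-56627112), MT1M (chr16:56632233-56633986), MT1F (chr16:56657694-56660698), MT1G (chr16:56666731-56668065), MT1H (chr16:56669814-56671129) and MT1X (chr16:56682424-56684196). MT1G is on the minus strand and the other 6 are on the plus strand. Each gene has 3 exons in its first-listed GENCODE 29 transcript, whose length ranges from 397 nt for MT1H to 829 nt for MT1M. The coding part takes 186 nt in 6 members and 189 nt in MT1G, and every member has 20 TGC or TGT codons, which code for cysteine. Pairwise identity of the coding sequences ran from 88.7% between MT1F and MT1X to 93.7% between MT1G and MT2A. The coding sequences of the 4 members whose mRNA fell with IWP2 are shown because their likeness bears on how reads can be assigned. They are given 5′ to 3′ from GENCODE 29 on GRCh38, with the cysteine codons in capitals.
MT1X: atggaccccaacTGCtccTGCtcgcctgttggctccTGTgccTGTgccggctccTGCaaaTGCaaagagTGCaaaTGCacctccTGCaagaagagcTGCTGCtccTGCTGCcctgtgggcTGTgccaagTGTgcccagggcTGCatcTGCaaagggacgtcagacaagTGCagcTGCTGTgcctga
MT1G: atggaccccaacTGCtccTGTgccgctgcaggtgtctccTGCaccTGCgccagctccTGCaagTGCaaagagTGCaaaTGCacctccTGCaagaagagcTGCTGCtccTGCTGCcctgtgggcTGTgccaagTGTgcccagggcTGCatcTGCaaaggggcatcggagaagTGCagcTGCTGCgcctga
MT1H: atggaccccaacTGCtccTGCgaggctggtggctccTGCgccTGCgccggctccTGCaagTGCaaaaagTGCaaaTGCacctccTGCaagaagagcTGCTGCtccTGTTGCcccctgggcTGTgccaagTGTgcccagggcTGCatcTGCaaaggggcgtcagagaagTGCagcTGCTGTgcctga
MT2A: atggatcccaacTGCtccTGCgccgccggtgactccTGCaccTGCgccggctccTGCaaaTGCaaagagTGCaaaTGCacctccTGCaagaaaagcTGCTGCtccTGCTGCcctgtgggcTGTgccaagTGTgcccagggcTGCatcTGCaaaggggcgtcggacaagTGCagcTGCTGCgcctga

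This likeness limited how much of each transcript was its own. Of the 50-nt windows along the MT1X transcript, 45.1% also occurred in a transcript of another gene, mostly AC026461.1, MT1G and MT1XP1. The share was 20.4% for MT1H, 20.2% for MT1G and between 3.59% and 7.05% for MT1E, MT1F, MT1M and MT2A. With 100-nt windows it was 19.1% for MT1X, all of it with AC026461.1, 3.36% for MT1H and 0 for the other members. AC026461.1 overlaps MT1X and was listed at no more than 0.000730 FPKM in any sample. Values of MT1X, MT1G and MT1H therefore carry some uncertainty from read assignment, and whether counting used strand is not given in the sources used here.

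Promoter windows from RefSeq (GRCh38.p14) were at hand for 3 of the 7 members, MT2A, MT1H and MT1X, but not for MT1E, MT1F, MT1G and MT1M. The 250 bases before the start are printed 5′ to 3′ on the plus strand, with matches to the MRE core in capitals, because this element is the one through which metals act on the family. The windows are chr16:56608334-56608583 for MT2A, chr16:56669564-56669813 for MT1H and chr16:56682220-56682469 for MT1X. The letters searched were TGCACNC and TGCGCNC on both strands, and overlapping matches would have counted separately.
MT2A: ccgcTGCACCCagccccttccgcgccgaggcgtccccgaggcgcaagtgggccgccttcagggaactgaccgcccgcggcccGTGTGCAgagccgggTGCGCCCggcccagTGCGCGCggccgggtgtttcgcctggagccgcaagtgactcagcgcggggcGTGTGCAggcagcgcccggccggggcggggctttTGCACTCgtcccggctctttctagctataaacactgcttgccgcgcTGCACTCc
MT1H: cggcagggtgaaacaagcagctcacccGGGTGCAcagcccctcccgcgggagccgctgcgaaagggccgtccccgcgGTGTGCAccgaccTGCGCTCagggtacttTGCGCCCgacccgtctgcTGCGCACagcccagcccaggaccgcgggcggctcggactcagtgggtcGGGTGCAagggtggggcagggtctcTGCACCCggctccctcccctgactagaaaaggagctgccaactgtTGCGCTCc
MT1X: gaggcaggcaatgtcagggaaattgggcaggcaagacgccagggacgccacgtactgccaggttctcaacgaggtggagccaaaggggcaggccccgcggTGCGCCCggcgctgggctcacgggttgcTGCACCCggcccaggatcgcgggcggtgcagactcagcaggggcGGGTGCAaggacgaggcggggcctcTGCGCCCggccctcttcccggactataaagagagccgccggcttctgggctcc

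In the full 300-base window, which runs on to 50 bases past the start, MT2A held 8 matches, MT1H 8 and MT1X 4. All matches of MT1H and MT1X and 7 of those of MT2A were upstream of the start. Among 27305 genes with a window of this length, 29.3% held at least 1 match, 0.593% held 4 or more and 0.0220%, or 6 genes, held 8 or more. MT1B, a member of the family listed at 0 in every sample, held 3 matches, SLC30A1 held 2 and MTF1 held 0. A TATAAA box on either strand was found in MT2A and MT1X but not in MT1H, against 12.0% of all windows. A match is a description of these letters only.

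**Figure D1:**
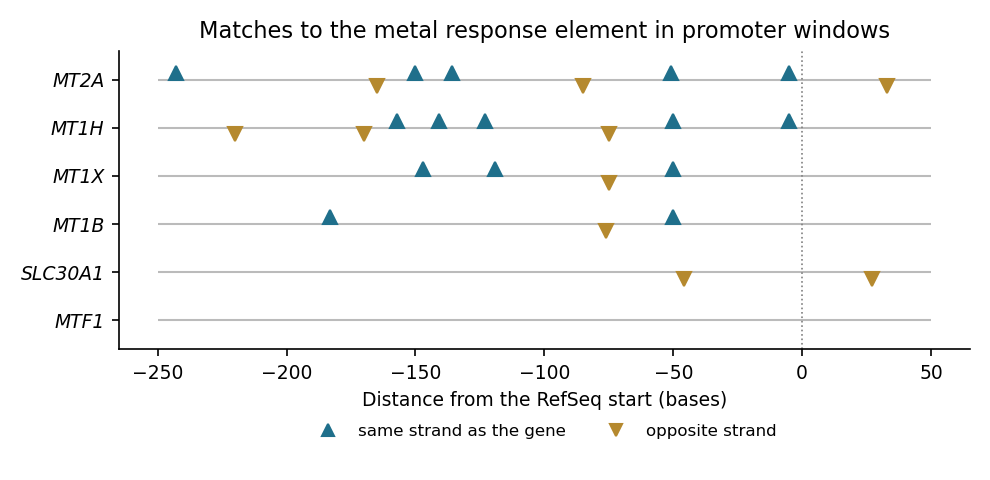
Positions of matches to the MRE core (TGCACNC or TGCGCNC) in RefSeq promoter windows, with the distance from the start in bases on the x axis and a row for each gene; upward triangles mark the strand of the gene and downward triangles the opposite strand. MT2A and MT1H hold 8 matches each, MT1X 4, MT1B 3, SLC30A1 2 and MTF1 0.

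With IWP2, 4 of the 6 members tested fell and none rose. The called members were MT1H, MT1G, MT1X and MT2A, with differences from 5.78-fold to 1.59-fold. Of these, only MT1H was called under every alternative, and the calls of the others depended on which samples were kept. Across all genes, 15.2% were called in either direction and 8.44% were called lower. These shares also fell with any 1 sample left out. The median log2 change of the 6 members, on the log2(FPKM + 1) scale, was -0.89, beside -0.02 over all genes tested. Both IWP2 values lay below both DMSO values for MT1X, MT1G, MT2A, MT1H and MT1E, an ordering that 31.9% of all genes tested showed. The adjusted p-values are from limma with Benjamini-Hochberg adjustment over all 14022 genes, with 2 samples per group.

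MT1H showed the largest fold difference in mean FPKM among the members. Its level was 10.6 and 10.8 FPKM in the DMSO samples and 1.79 and 1.92 FPKM in the IWP2 samples. The groups were far apart and each pair of replicates was close. The means were 10.7 ± 0.110 and 1.85 ± 0.0903 FPKM (SD, n = 2 per group), a 5.78-fold lower level with IWP2. Its log2 change was -2.04 ± 0.12 (SE), with a limma adjusted p of 0.00107. MT1H ranked 188 of the 14022 genes when log2 changes were ordered from the lowest. Its order with MT1G was not fixed on this scale. With a pseudocount of 5, MT1G had the larger fall (log2 change -1.35 against -1.20). The same held without DMSO replicate 1 (-2.13 against -2.05) and without IWP2 replicate 2 (-2.19 against -2.07).

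MT1G was at 15.6 and 21.1 FPKM in DMSO and at 3.21 and 5.10 FPKM in IWP2. Its replicates differed more than those of MT1H, but the lowest DMSO value was still well above the highest IWP2 value. The mean fell from 18.4 ± 3.88 to 4.16 ± 1.34 FPKM (SD, n = 2), 4.43-fold, with a log2 change of -1.92 ± 0.23 (SE) and a limma adjusted p of 0.00759. MT1G lost its call (adjusted p 0.0530 to 0.0724 in limma) when DMSO replicate 2, IWP2 replicate 1 or IWP2 replicate 2 was left out, and without the filter on low values (0.0827).

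MT1X was the most abundant member in every sample. It stood at 58.6 and 83.4 FPKM in DMSO and at 30.8 and 38.2 FPKM in IWP2. In each group replicate 2 was the higher sample, and the groups did not overlap. The mean was 71.0 ± 17.5 FPKM in DMSO and 34.5 ± 5.24 FPKM in IWP2 (SD, n = 2), 2.06-fold lower. The log2 change was -1.01 ± 0.20 (SE), with a limma adjusted p of 0.0290, and 4.81% of all genes tested had a change of -1 or lower. This call was also lost (adjusted p 0.0859 to 0.195 in limma) when DMSO replicate 2 or either IWP2 replicate was left out, and without the filter on low values (0.156).

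MT2A, the single functional type 2 gene and the main form in many tissues, was not the main form here. It had 9.82 and 8.91 FPKM in DMSO and 5.37 and 6.39 FPKM in IWP2. The samples separated by group, with a gap that was small beside those of MT1H and MT1G. The means of 9.37 ± 0.642 and 5.88 ± 0.719 FPKM (SD, n = 2) differed 1.59-fold. A log2 change of -0.59 ± 0.13 (SE) came with a limma adjusted p of 0.0418, which passed the threshold only narrowly. Without any 1 of the 4 samples the log2 change was between -0.70 and -0.49, and the call was lost. MT2A also missed the threshold in limma after quantile normalization (adjusted p 0.0523) and without the filter on low values (0.130). With the replicate number as a block, its adjusted p in limma was 0.0665.

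MT1E did not pass the test, although its samples separated by group. The DMSO samples had 4.59 and 4.69 FPKM and the IWP2 samples 2.89 and 1.78 FPKM, so that the spread lay in the IWP2 group. Its log2 change was -0.78 ± 0.20 (SE), with a limma adjusted p of 0.0628. MT1F was at 2.52 and 1.66 FPKM in DMSO and at 1.74 and 1.42 FPKM in IWP2. These groups overlapped, and the log2 change of -0.25 ± 0.21 (SE) had a limma adjusted p of 0.488. MT1M was listed at 0.153 and 0.177 FPKM in DMSO and at 0 and 0.164 FPKM in IWP2. No fold is given for it, because no sample had more than about 2 fragments.

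**Figure D2:**
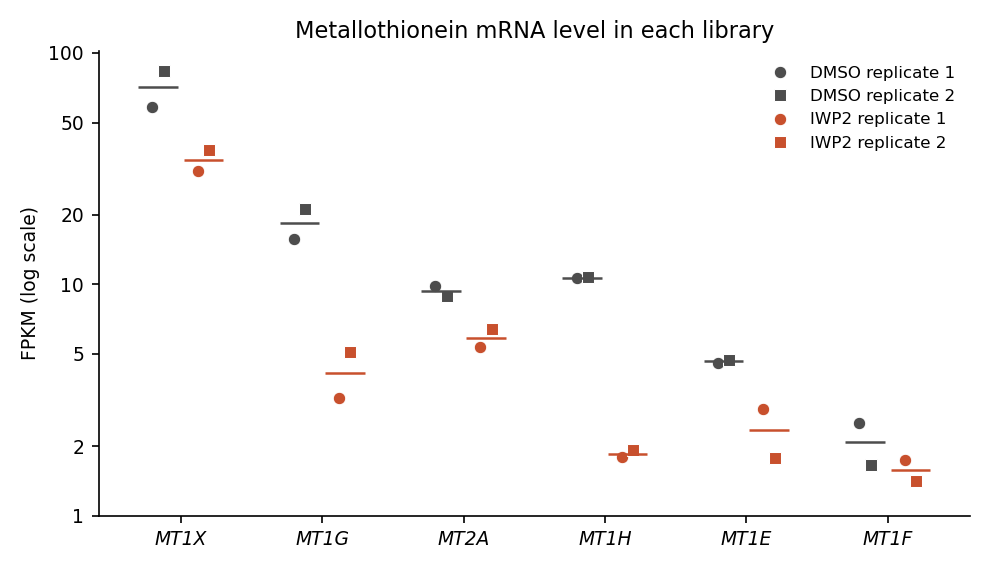
FPKM of the 6 metallothioneins tested (y axis, log scale) in each DMSO and IWP2 sample, with circles for replicate 1, squares for replicate 2 and a line at the mean of the 2 samples. The groups separate for MT1X, MT1G, MT2A, MT1H and MT1E and overlap for MT1F.

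The order of the members in FPKM differed between the groups. In DMSO it was MT1X, MT1G, MT1H, MT2A, MT1E and MT1F by mean FPKM. In IWP2 it was MT1X, MT2A, MT1G, MT1E, MT1H and MT1F, with MT1H down from the third place to the fifth. The IWP2 values of MT1E (2.89 and 1.78 FPKM) enclosed those of MT1H (1.79 and 1.92 FPKM), so these neighbours did not differ beyond their spread. The highest MT1F value in IWP2, 1.74 FPKM, lay just below the lowest MT1H value. MT1H and MT2A were close in DMSO too, at 10.7 ± 0.110 and 9.37 ± 0.642 FPKM (SD, n = 2), but their samples did not overlap. Such comparisons between members rest on the transcript length taken for each, and the annotated MT2A transcripts run from 416 to 903 nt. In approximate fragments, worked out below, MT2A came next after MT1X in every sample. In DMSO it had about 119 and 93, MT1G 53 and 55, MT1E 47 and 41 and MT1H 34 and 26. The FPKM places of MT2A, MT1G and MT1H, and the move of MT2A to a higher place in IWP2, are therefore not secure.

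Added up, the 7 members came to 102 and 131 FPKM in DMSO and to 45.8 and 54.9 FPKM in IWP2. The sums did not overlap, and their means were 116 ± 20.4 and 50.4 ± 6.49 FPKM (SD, n = 2), 2.31-fold lower with IWP2. No p is given for the sum, because its members were chosen with results of these data known, and an exact two-sided permutation test of 2 against 2 samples cannot go below p = 0.333. Without MT1X the sum was 45.4 ± 2.82 FPKM in DMSO and 15.9 ± 1.25 FPKM in IWP2 (SD, n = 2), 2.86-fold lower. MT1X made up 57.5% and 63.8% of the sum in DMSO and 67.2% and 69.5% in IWP2. The share of MT1G went from 15.3% and 16.2% to 7.01% and 9.29%, and that of MT1H from 10.4% and 8.24% to 3.91% and 3.49%. MT2A had 9.63% and 6.82% in DMSO and 11.7% and 11.6% in IWP2. In FPKM, the make-up of the metallothionein pool thus differed between the groups along with its size. MT1X and MT2A held larger shares and MT1G and MT1H smaller ones in IWP2. The larger share of MT1X depended on this scale. In approximate fragments scaled to depth, worked out below, the IWP2 to DMSO ratio was 0.502 for MT1X and 0.492 for the sum.

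**Figure D3:**
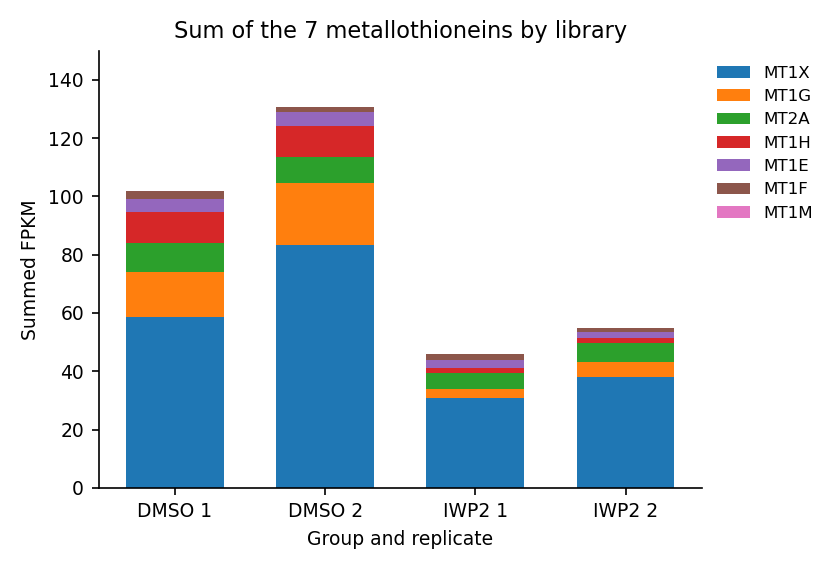
Summed FPKM of the 7 metallothioneins (y axis) in each sample, with each coloured segment for a member. The DMSO bars reach 102 and 131 FPKM and the IWP2 bars 45.8 and 54.9 FPKM, and MT1X is the largest segment in each of them.

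Since these transcripts are short, the number of fragments behind each value was worked out. The FPKM of low genes rose in steps of 1 fragment, from which depths of about 23000000 and 20450000 fragments in DMSO and 25150000 and 21800000 in IWP2 were read. Between 94.9% and 95.8% of the low values used were within 0.1 of a whole number of fragments. The same steps gave the length taken off each transcript to obtain its effective length, which was 258 and 278 nt in DMSO and 256 and 270 nt in IWP2. It therefore differed by replicate number more than by group. A transcript of 397 nt such as that of MT1H kept only a small part of its length, so that few fragments carried its value.

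On this scale MT1X had about 259 and 293 fragments in DMSO and 150 and 150 in IWP2. MT2A came next, with about 119 and 93 against 72 and 72. MT1G had about 53 and 55 in DMSO and 12 and 15 in IWP2. MT1H, with the largest fold difference in FPKM, rested on about 34 and 26 fragments in DMSO and on 6 and 5 in IWP2. Counting error alone is therefore wide for MT1H, and the closeness of its replicates in FPKM is no measure of its precision. MT1E had about 47 and 41 against 33 and 17, MT1F about 25 and 14 against 19 and 13, and MT1M 2 or fewer in each sample. Scaled to the depth of each sample, the DMSO mean was 5.57-fold that of IWP2 for MT1H, 4.27-fold for MT1G, 1.99-fold for MT1X, 1.96-fold for MT1E, 1.58-fold for MT2A and 1.31-fold for MT1F.

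**Figure D4:**
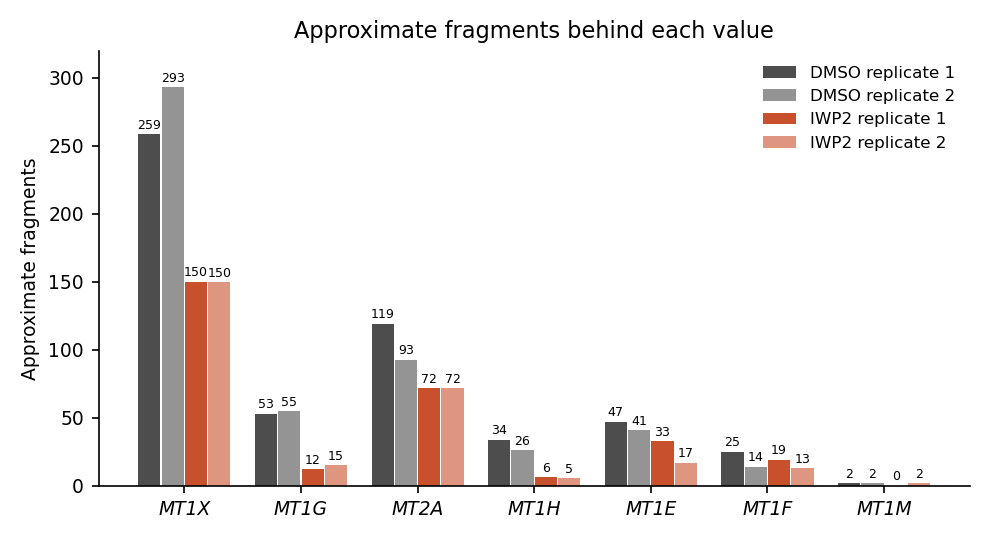
Approximate number of fragments behind each metallothionein value (y axis) in each of the 4 samples, computed from FPKM, the depth and the effective length. MT1X has 150 to 293 fragments per sample, whereas MT1H has 6 and 5 and MT1G 12 and 15 in the IWP2 samples.

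The gap between replicates differed among the members. For comparison, the median gap between DMSO replicates on the log2(FPKM + 1) scale was 0.15 over all genes tested and 0.33 over the 1189 whose longest annotated transcript is under 1000 nt. The IWP2 medians were 0.13 and 0.29. MT1X had gaps of 0.50 in DMSO and 0.30 in IWP2, and MT1G had gaps of 0.41 and 0.54, above these medians. Those of MT2A (0.13 and 0.21) and MT1H (0.02 and 0.06) were below the medians for short transcripts. MT1E replicates were 0.03 apart in DMSO and 0.48 in IWP2, and MT1F replicates 0.41 and 0.18. Of the 6 genes nearest to MT1X in mean FPKM, 0 had a larger gap in either group. Of the 6 nearest to MT1F, 3 had a larger gap in DMSO and 2 in IWP2.

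Of 13 other metallothionein genes and pseudogenes in the table, 11 were listed at 0 in every sample. These were MT1A, MT1B, MT1CP, MT1DP, MT1HL1, MT1JP, MT1P1, MT1P3, MT2P1, and MT3 and MT4, the forms known from brain and from stratified epithelium. The heat shock genes HSPA1A and HSPA1B, which are close copies, were also listed at 0 in all 4 samples. Whether a value of 0 in genes with close copies is absent expression or a failed estimate was not tested. MT1L was listed at 0.368 FPKM in DMSO replicate 2 and at 0 elsewhere. MT1XP1, a processed pseudogene of 186 bases (chr1:16241213-16241398, GRCh38) that resembles MT1X, was at 27.6 FPKM in DMSO replicate 2 and listed at 0 in the other 3 samples. This value came from the sample with the highest MT1X level, and the limma adjusted p was 0.349. MT1XP1 is shorter than the 278 nt taken off transcript length in that sample. How many fragments lay behind its value could therefore not be worked out, and the value is no secure level.

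Genes whose pattern was most like that of MT1X were sought by the root mean square difference of log2(FPKM + 1), centred on each gene, over the 4 samples. The nearest were CLEC11A, a secreted growth factor for blood progenitors and bone (0.0370), AC105233.5 (0.0557), CRABP2, a carrier of retinoic acid (0.0616), AC090826.1 (0.0644) and COX10-AS1 (0.0672). CRABP2 was at 140 and 186 FPKM in DMSO and at 67.1 and 91.6 FPKM in IWP2, with replicate 2 the higher in both groups as for MT1X. The other members were farther from MT1X than these genes, from 0.305 for MT2A to 0.549 for MT1H.

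Genes that sense and move metals were then examined. Since 15.2% of all genes tested were called, the 1 or 2 calls in each of the zinc, copper, iron and heat shock lists that follow do not set these lists apart. MTF1, the transcription factor that senses zinc, had 1.99 and 3.99 FPKM in DMSO and 2.76 and 2.35 in IWP2. Both IWP2 values lay within the range of the DMSO values, and the limma adjusted p was 0.811. SLC30A1, a zinc exporter of the plasma membrane that MTF1 also controls, had 6.31 and 5.86 FPKM in DMSO and 5.98 and 6.45 in IWP2. The samples of the groups interleaved, with a log2 change of 0.03 ± 0.12 (SE) and a limma adjusted p of 0.912.

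Of 6 zinc exporters of the SLC30 family tested, 1 rose and 0 fell. This was SLC30A2, a vesicular exporter, with 0.955 and 0.349 FPKM in DMSO and 2.59 and 2.26 FPKM in IWP2 (limma adjusted p 0.0437). SLC30A9 was the most abundant exporter, at 24.7 ± 1.08 FPKM in DMSO and 22.6 ± 0.229 FPKM in IWP2 (SD, n = 2), and did not pass. Of 11 zinc importers of the SLC39 family, 1 fell and 1 rose. SLC39A4, the importer that takes up dietary zinc in the gut, was at 10.3 and 11.7 FPKM in DMSO and at 3.43 and 4.35 FPKM in IWP2. Its log2 change of -1.30 ± 0.15 (SE) had a limma adjusted p of 0.00653 and was the only fall called among the zinc exporters and importers tested. SLC39A10 rose from 17.6 and 16.7 FPKM to 23.6 and 23.2 FPKM (limma adjusted p 0.0380). The most abundant importer, SLC39A1, was at 119 ± 3.79 FPKM in DMSO and 122 ± 4.17 FPKM in IWP2 (SD, n = 2), with an adjusted p of 0.815 in limma. Median log2 changes were -0.06 over the exporters and -0.12 over the importers. Under the alternative settings, SLC30A2 was called in 7 of 12, SLC39A4 in 10 of 13 and SLC39A10 in 5 of 13.

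Copper and iron genes were next. Of 8 copper genes tested, 1 rose, namely ATP7B, a copper-exporting ATPase, from 1.94 and 1.65 FPKM to 4.37 and 3.51 FPKM (limma adjusted p 0.0343). SOD1, the copper and zinc superoxide dismutase, was the most abundant, at 157 ± 8.26 FPKM in DMSO and 150 ± 12.3 FPKM in IWP2 (SD, n = 2). Of 7 iron genes, 1 fell, and it was IREB2, an iron-sensing RNA-binding protein, with a log2 change of -0.45 ± 0.09 (SE) and a limma adjusted p of 0.0344. FTH1, the ferritin heavy chain and the most abundant of them, had an adjusted p of 0.786 in limma. The lists had median log2 changes of -0.09 for copper and -0.30 for iron. ATP7B was called under 7 of 12 alternatives and IREB2 under 6 of 13, and neither was called with any 1 of the 4 samples left out.

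Other stress pathways that act on metallothionein promoters were read in the same way, beside 52.4% of all genes tested with a change below 0. None of the 11 NRF2 and glutathione genes was called in limma, 9 had changes below 0 with a median log2 change of -0.28, and GPX4, the most abundant, was at 293 ± 29.8 FPKM in DMSO and 297 ± 6.67 FPKM in IWP2 (SD, n = 2). Of 6 glucocorticoid-responsive genes tested 0 were called, and all 6 had changes above 0, with a median of 0.16. SGK1, the most abundant of these, stood at 30.1 and 19.4 FPKM in DMSO and at 36.2 and 45.6 FPKM in IWP2, where the limma adjusted p was 0.101. Of 7 heat shock genes, 1 fell. It was BAG3, a co-chaperone of HSP70, from 36.9 and 41.0 FPKM to 12.9 and 12.4 FPKM (limma adjusted p 0.00128), while HSPA8, the most abundant, had an adjusted p of 0.246. The genes around the cluster on 16q13 were examined for a change of the whole region. Of 10 tested, 0 were called in limma, 9 had changes below 0 and the median log2 change was -0.16, with the most abundant gene, NUDT21, at 117 ± 0.0530 FPKM in DMSO and 106 ± 9.15 FPKM in IWP2 (SD, n = 2).

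**Figure D5:**
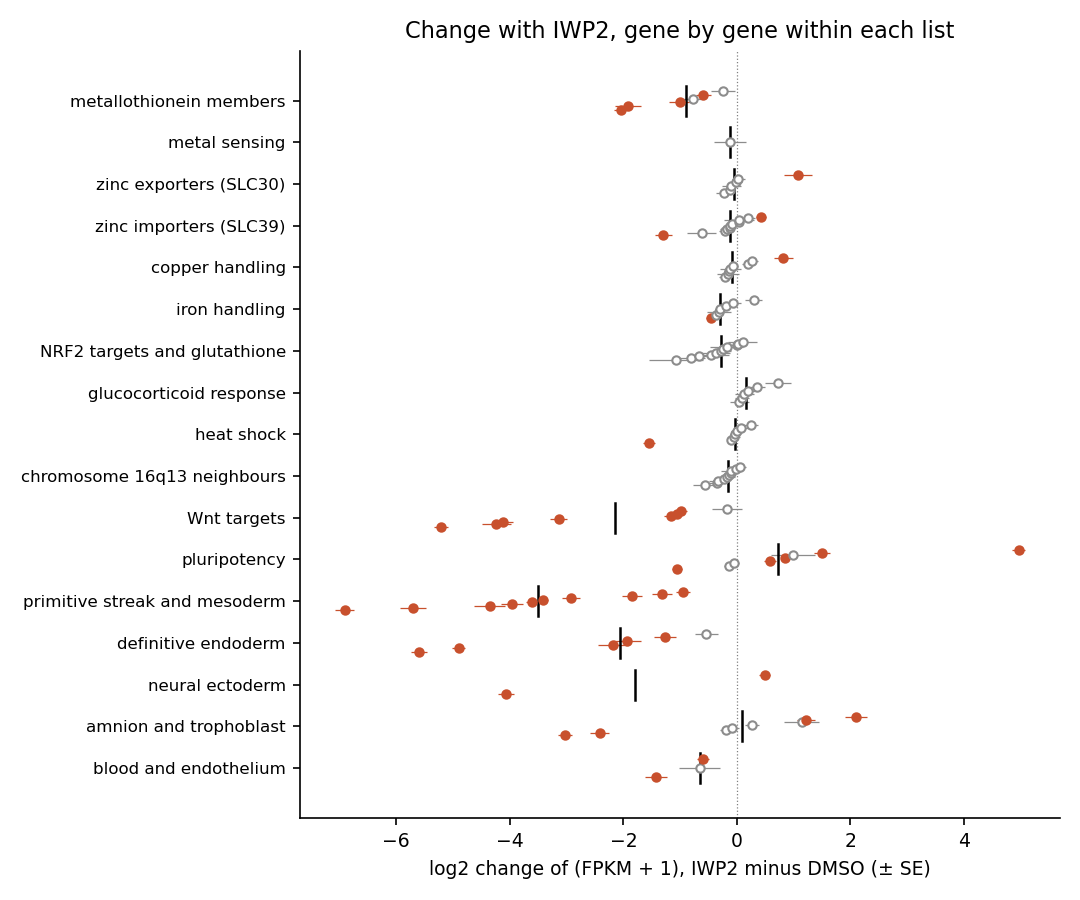
Log2 change of (FPKM + 1) with IWP2 (x axis, with SE) for each gene tested, by list; filled points passed the limma test at an adjusted p under 0.05, open points did not, and black bars mark list medians. Of the metallothioneins 4 of 6 are filled and lie below 0, and of the neighbours on 16q13 0 of 10 are filled and 9 lie below 0, where 52.4% of all genes tested lie below 0.

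Known targets of Wnt signaling were read for scale. Of 8 tested, 7 fell and 0 rose, with a median log2 change of -2.15. SP5, a transcription factor induced by β-catenin, went from 53.2 and 47.0 FPKM to 0.379 and 0.363 FPKM, a log2 change of -5.22 ± 0.12 (SE, limma adjusted p 0.000186). The largest changes after SP5 were those of DKK1, NKD1 and LEF1, at -4.24, -4.12 and -3.14. All 4 exceeded the largest metallothionein change, that of MT1H at -2.04. AXIN2, a negative feedback gene, had -1.16, TCF7 -0.99 and NOTUM -1.06.

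Markers of other lineages also differed between the groups. Of 6 definitive endoderm markers, 5 fell, led by CER1 (1612 and 2048 FPKM in DMSO, 38.6 and 34.2 in IWP2) and GATA6. FOXA2 and CXCR4 followed, with log2 changes of -2.18 and -1.94 (called under 9 of 12 and 10 of 13 alternatives). The endoderm markers summed to 1917 and 2307 FPKM in DMSO and to 126 and 137 in IWP2, and none was listed at 0 throughout. Of 8 amnion and trophoblast markers, KRT7 and TFAP2A rose, and HAPLN1 and CDX2 fell. The rises were called under 10 of 12 and 10 of 13 alternatives, and the falls under all. This list summed to 598 and 498 FPKM in DMSO and to 585 and 629 in IWP2, with KRT18 the most abundant and none at 0 throughout. Both neural ectoderm markers tested changed, OTX2 down and NES up, the call of NES being lost in limma with any 1 of the 4 samples left out, while PAX6, SOX1 and ZIC1 were below the minimum. The 5 neural markers summed to 156 and 149 FPKM in DMSO and 139 and 128 in IWP2, mostly NES. Of 3 blood and endothelium markers tested, KDR and RUNX1 fell (called under 9 of 13 and 9 of 12 alternatives), GATA1 was listed at 0 in every sample and PTPRC reached at most 0.00906 FPKM. That list summed to 61.6 and 65.9 FPKM in DMSO and 41.1 and 38.4 in IWP2, mostly KDR. The part of these lineages in the metallothionein levels was not tested.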

How the data were processed

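RNA of the 4 samples was prepared with Trizol and an Illumina TruSeq kit, and the deposited table gives FPKM per gene. The submitters' processing notes name BWA, Bowtie and RSEM without versions, and hg19. The gene spans in the table, however, match GRCh38: of 55723 gene IDs found in GENCODE 29 with their version, 55629 had the same span. FPKM values were used as deposited by the authors and are not counts. The DMSO columns are headed as without IWP2 and numbered, and their numbers are used here as replicate names. Genes with a mean of at least 1 FPKM were tested on log2(FPKM + 1) with limma 3.58.1 in R 4.3.3 (lmFit and eBayes with an intensity trend, two-sided, Benjamini-Hochberg over all genes tested), unpaired, and called at an adjusted p under 0.05. Fold changes on this scale understate the change of low genes. The fit was tested on simulated data. The summed FPKM per sample was 653850 and 616418 in DMSO and 642918 and 651768 in IWP2. Mitochondrial transcripts took 9.57% and 6.25% in DMSO and 8.95% and 6.92% in IWP2.

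Depth was read from the FPKM steps of low genes with a single transcript, so fragment numbers are approximate and rest on the first-listed transcript of each member. They carry counting error and also the error of the fitted depth and length and of read assignment. The members and gene lists were chosen with earlier results of these data known. Genes named are the members, every other metallothionein row, MTF1, SLC30A1, up to 4 called genes with the largest changes and the most abundant gene of each other list, and the 5 genes most like MT1X in pattern. HSPA1A, HSPA1B, MSGN1, ZFP42, AXIN2, TCF7, NOTUM, PAX6, SOX1, ZIC1, GATA1, PTPRC and the genes named under Other observations were added after their values were seen. Alternatives covered the pseudocount, the filter, rescaling, quantile normalization, the trend, the replicate number and each sample left out. No member symbol was repeated, so summing repeated rows could not be tried.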

Additional observations from a re-analysis of the deposited data

How the results depend on the processing

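Every metallothionein tested kept a change below 0 under all alternatives in which it was tested. MT1H was called in 13 of 13 (log2 change -2.47 to -1.20), MT1G in 9, MT1X in 9 and MT2A in 6 of 13, and MT1E and MT1F in 0 of 12. Without a filter on low values, 381 of 28917 genes were called in place of 2129 of 14022, 1 metallothionein (MT1H) in place of 4, and 21 in place of 41 list genes. The share of calls that were higher was then 31.0%, against 44.4%, and it was 50.7% after quantile normalization. With 1 sample left out, its group's lone sample being assumed to vary like the other group, the calls ranged from 238 to 1375 over all genes, from 1 to 3 among the metallothioneins (1 without DMSO replicate 2 or either IWP2 replicate) and from 18 to 38 among the lists. Without IWP2 replicate 1 or 2, 30.6% and 24.4% of calls were higher. MT2A also missed the threshold after quantile normalization (adjusted p 0.0523 in limma). With the replicate number as a block, 1927 genes, 3 metallothioneins and 42 list genes were called, and MT2A had an adjusted p of 0.0665 in limma. The labels do not say that the number marks a shared batch, and samples with the same number correlated at 0.152 in their deviations from the group means. The ratio of summed metallothionein FPKM, 0.433, moved by less than its spread without MT1X, after rescaling, with median-of-ratios size factors, with 1 sample left out, and with approximate fragments scaled to depth (0.492), which was chosen after seeing the data. Depth limits MT1M, with 2 fragments or fewer per sample, and MT1H in IWP2.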

Other observations

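Of the 11 NRF2 and glutathione genes tested, 9 had their highest value in DMSO replicate 1, which held the highest value of 24.9% of all genes tested. HMOX1, the heme oxygenase induced by oxidative stress and heavy metals, was at 18.1 FPKM in DMSO replicate 1, at 5.74 in DMSO replicate 2 and at 4.18 and 4.59 in IWP2. TXNRD1, a thioredoxin reductase, had 88.2 and 53.9 FPKM in DMSO and 40.6 and 37.7 in IWP2, with an adjusted p of 0.0833 in limma.

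The primitive streak and mesoderm markers had their highest value in DMSO replicate 2 for 9 of 10 genes tested, beside 28.4% of all genes. APLNR and MESP1 were at 380 and 47.6 FPKM in DMSO replicate 1 and at 512 and 74.6 in DMSO replicate 2.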
